A study of Mus musculus with 7 samples.

Results

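The receptor for parathyroid hormone (PTH) and the signalling chain behind it were examined in sorted mouse osteoblasts by 10 genes among the 23725 listed in each count file. They are Pth1r (the receptor), Gnas (its G protein), Pde4b and Pde4d (cAMP phosphodiesterases), Sik1, Sik2 and Sik3 (salt-inducible kinases), Crtc2 and Crtc3 (coactivators held back by these kinases) and Creb1 (the transcription factor they serve). The members were chosen by symbol, as named steps of 1 pathway, with earlier results of the tumor-bearing against tumor-free contrast in view, among them the lower levels of Pth1r and Sik1. Their differences in that contrast are therefore a description: fold changes come from the fit across all genes, intervals show precision only, and no p-value is given for them. Each of the 10 symbols matched 1 Entrez ID in the files. Of the 10 genes, 8 had at least 1 count and 3 (Pth1r, Sik1 and Crtc3) passed the low count filter.

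Libraries came from single C57BL/6 mice, all male, that carry KrasLSL-G12D/WT and p53Flox/Flox alleles and a green fluorescent protein (GFP) reporter of osteocalcin (Ocn-GFP). In 4 tumor-bearing mice, Cre recombinase delivered through the trachea (AdCre) had started lung tumors 14 weeks before. The 3 tumor-free mice share the genotype, and the labels do not say what they received in place of AdCre. Age was 31 weeks except in tumor-bearing replicate 4 and tumor-free replicate 3, at 23 weeks. GFP-positive cells without CD45, CD31 and the erythroid marker were sorted, 2000 per mouse, from collagenase-digested bone pooled with lineage-depleted marrow.

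Library totals ran from 77127 to 169774 counts. Levels are CPM, counts scaled to library size with the TMM method, and an observed 0 allows up to 3 counts, or 16.9 to 41.1 CPM. Intervals and limits of this kind cover counting error only. The highest count of any gene was 282 to 303 in every library, although totals differed by more, and 12 to 66 genes per library had at least 200 counts. Sik1 reached 157 counts, and Wnt4, Mc1r, Rapgef4 and Gna11 reached 178 to 206. Whether a ceiling on counts narrows the CPM of such genes was not tested. Of the 11 osteoblast markers examined all had counts somewhere, but unevenly. Counts per library were 23 to 96 for Col1a1, 11 to 31 for Col1a2, 10 to 51 for Ibsp, 14 to 70 for Sparc and 7 to 35 for Runx2. Spp1 had 1 to 14 and Alpl 1 to 7. Osteocalcin itself (Bglap) had only 0 to 2, as had Sp7 and Dmp1, and Bglap2 had 0 to 1. Of 7 neutrophil markers 5 were at 0 in all 7 libraries (S100a8, Elane, Ltf, Camp and Ngp), as were 4 of 5 endothelial markers, Pecam1 among them. Of 6 macrophage markers 5 were at 0, but Csf1r had 8 to 24 counts in every library. Of 4 T cell markers Cd3d had 16 to 34, but Cd3e had 0 to 1, Cd8a 0 to 4 and Cd4 0 to 3. The chondrocyte gene Sox9 had 41 to 166 counts, Col2a1 1 to 92, Acan 1 to 13 and Comp 0 to 9, with Col10a1 at 0. The marrow stroma gene Lepr had 58 to 123, but Cxcl12 had 1 to 4, Kitl and Pdgfra 0 to 5 and Adipoq 0. In sorted bulk cells, fewer cells of a type and less RNA per cell cannot be told apart. Counts come from transcript 3′ ends and were not divided by transcript length, so levels are compared within a gene across libraries.

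PTH and its relative PTHrP bind the receptor encoded by Pth1r on osteoblasts and osteocytes. The receptor acts through the stimulatory G protein alpha subunit, which makes adenylyl cyclase produce cAMP, and cAMP activates protein kinase A (PKA). PKA phosphorylates the salt-inducible kinases and so restrains them, whereupon CRTC coactivators and class IIa histone deacetylases lose their inhibitory phosphorylation. CRTC proteins then enter the nucleus and join CREB at cAMP response elements, and phosphodiesterases end the signal by breaking down cAMP. The chain is best known in bone for the anabolic action of intermittent PTH and for the control of Sost and Tnfsf11. A transcript level measures neither kinase activity nor cAMP.

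Promoter sequences show where the letters of a cAMP response element lie in this gene set. The RefSeq promoter table (GRCm38.p6) held 16 start sites for 8 of the 10 genes, each with 250 bases before and 50 bases from the start, and none for Sik1 or Crtc2. The full element TGACGTCA was searched together with its half-site, TGACG on either strand (CGTCA when read on the printed strand). The full element holds both half-site forms, which overlap within it. None of the 16 windows held the full element, against 1.79% of all 32851 windows in the table. A half-site was found in 7 of the 16 windows, or 43.8%, against 20.8% of all windows. The Pth1r start farthest upstream had 1 half-site, with its first base 161 bases before the start, and the other Pth1r windows had none. Gnas had a half-site in 3 of its 4 windows, 2 of which overlap and hold the same site. The 7 windows with a half-site are therefore not independent. Pde4b had a half-site in 1 of its 4 windows, Sik2 had 2 near its start and Sik3 had 3, while Crtc3, Creb1 and Pde4d had none. A match of letters is no binding site. The 250 bases before the start are printed 5′ to 3′ on the gene's strand for Pth1r, whose CPM separated the groups while its raw counts overlapped, for Sik3, which had most half-sites and no counts, and for Crtc3, which was counted and had no half-site; capitals mark half-sites.
Pth1r, minus strand, chr9:110747146-110747395: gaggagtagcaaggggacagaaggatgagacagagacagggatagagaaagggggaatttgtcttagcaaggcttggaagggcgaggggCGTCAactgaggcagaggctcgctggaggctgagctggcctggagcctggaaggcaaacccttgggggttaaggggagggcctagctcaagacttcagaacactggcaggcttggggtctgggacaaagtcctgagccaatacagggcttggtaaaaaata
Sik3, plus strand, chr9:46012570-46012819: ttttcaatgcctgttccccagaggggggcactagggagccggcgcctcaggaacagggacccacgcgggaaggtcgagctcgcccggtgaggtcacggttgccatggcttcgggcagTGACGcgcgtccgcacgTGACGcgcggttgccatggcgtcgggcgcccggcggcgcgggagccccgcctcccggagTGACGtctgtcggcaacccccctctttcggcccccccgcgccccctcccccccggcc
Crtc3, minus strand, chr7:80688878-80689127: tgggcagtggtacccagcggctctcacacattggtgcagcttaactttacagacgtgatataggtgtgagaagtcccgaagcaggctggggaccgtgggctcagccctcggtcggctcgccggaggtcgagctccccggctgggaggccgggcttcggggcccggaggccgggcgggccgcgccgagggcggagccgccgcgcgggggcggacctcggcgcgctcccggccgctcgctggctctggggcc

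Pth1r, the receptor (Entrez 19228, chromosome 9, 110722085 to 110747145, mm10, protein coding), was counted in every library. Tumor-free replicates 1 to 3 had 23, 31 and 28 counts, or 224, 263 and 226 CPM. Tumor-bearing replicates 1 to 4 had 11, 14, 31 and 26 counts, or 151, 147, 174 and 177 CPM. Every tumor-bearing library lay below every tumor-free one, and the gap lay between tumor-bearing replicate 4 and tumor-free replicate 1. The groups also did not overlap with RLE or upper-quartile scaling or on raw totals. Mean levels were 162 ± 15.6 CPM (SD, n = 4) with a tumor and 238 ± 22.2 CPM (SD, n = 3) without, a log2 fold change of -0.53 (SE 0.25, 95% interval -1.11 to 0.05).

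Single libraries measured Pth1r loosely. The counting interval (95%, Poisson) of the highest tumor-bearing value, 177 CPM, ran from 116 to 260 CPM and that of the lowest tumor-free value, 224 CPM, from 142 to 336 CPM, so these neighbours do not differ beyond counting error. Across the 7 libraries the chi-square per degree of freedom against equal shares of each total was 1.03, where 1 is what counting alone gives on average. Within 31 weeks the mean was 157 CPM with a tumor and 243 CPM without (log2 ratio -0.63), and the single 23-week mice had 177 and 226 CPM (log2 ratio -0.35). Leaving out each library in turn gave log2 fold changes between -0.66 and -0.45.

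**Figure D1:**
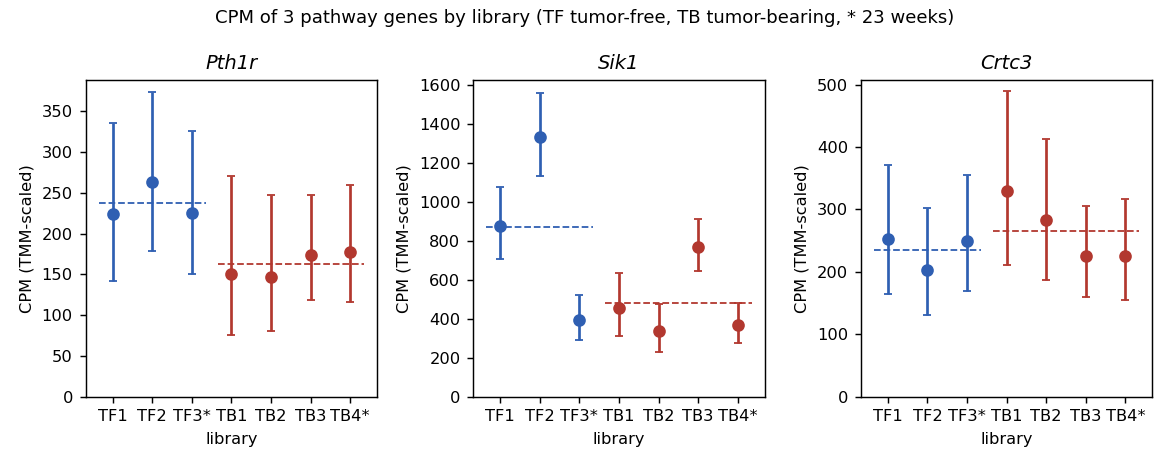
CPM (TMM-scaled) of Pth1r, Sik1 and Crtc3 in each library, tumor-free (TF, blue) and tumor-bearing (TB, red), with 95% Poisson counting intervals, dashed lines at group means and stars for 23-week mice. Pth1r separated the groups at 147 to 177 against 224 to 263 CPM, Sik1 spanned 395 to 1333 CPM among tumor-free mice alone, and Crtc3 overlapped.

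Gnas, which encodes the stimulatory G protein alpha subunit from an imprinted locus with several start sites (Entrez 14683, chromosome 2, 174284320 to 174346744), was sparse for a gene active in most cells. Tumor-free replicates 1 to 3 had 4, 3 and 10 counts and tumor-bearing replicates 1 to 4 had 2, 3, 7 and 4. The groups overlapped, and tumor-free replicate 3, a 23-week mouse, held 10 of the 33 counts. Levels were 31.4 ± 5.64 CPM (SD, n = 4) with a tumor and 48.3 ± 28.7 CPM (SD, n = 3) without. At 31 weeks the means were 32.8 and 32.2 CPM.

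Both cAMP phosphodiesterase genes of the PDE4 class were near the limit of detection. Pde4d (chromosome 13, 108654177 to 109955969) had 4, 3 and 3 counts in tumor-free replicates 1 to 3 and 0, 5, 11 and 7 in tumor-bearing replicates 1 to 4. Its groups overlapped through tumor-bearing replicate 1, the shallowest library, where a count of 0 allows up to 41.1 CPM. Levels were 40.5 ± 27.6 CPM (SD, n = 4) with a tumor and 29.5 ± 8.16 CPM (SD, n = 3) without. Pde4b (chromosome 4, 102087332 to 102607275) had 3, 3 and 0 counts without a tumor and 1, 1, 6 and 1 with one, an overlapping range. The longest transcripts of Pde4b and Pde4d shared 12 stretches of 25 bases, so a small part of their reads could be split between them.

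The salt-inducible kinases differed in whether they were counted at all. Sik1 (Entrez 17691, chromosome 17, 31844248 to 31855804), the member of the family whose own transcription cAMP induces, had 552 counts in all. Sik2 (chromosome 9, 50889644 to 51009132) and Sik3 (chromosome 9, 46012820 to 46224194), the kinases through which PTH is known to act on the Sost and Tnfsf11 genes, had 0 counts in all 7 libraries. Over the 830673 counts of all libraries, unscaled, 0 allows up to 3.61 CPM for each of these kinases, by counting error only. Within its last 500 bases the longest Sik2 transcript overlaps exons of Ppp2r1b on the opposite strand, and the strand setting of the counter is not known. Whether Sik2 reads were lost there was not tested, so the limit may not hold for Sik2. In the same files 43.8% of gene IDs had 0 counts in every library, so a 0 was common. The longest transcripts of Sik1, Sik2 and Sik3 shared no 25-base stretch with each other.

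Sik1 varied widely within each group. Tumor-free replicates 1 to 3 had 90, 157 and 49 counts, or 875, 1333 and 395 CPM. Tumor-bearing replicates 1 to 4 had 33, 32, 137 and 54 counts, or 453, 336, 770 and 368 CPM. Tumor-free replicates 1 and 2 lay above all other libraries, tumor-bearing replicate 3 came next, and tumor-free replicate 3 lay among the other tumor-bearing libraries, so the groups overlapped. Mean levels were 482 ± 198 CPM (SD, n = 4) with a tumor and 868 ± 469 CPM (SD, n = 3) without, a log2 fold change of -0.79 (SE 0.36, 95% interval -1.62 to 0.04).

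The spread of Sik1 was well beyond counting error. Its chi-square per degree of freedom was 22.3, higher than that of 93.1% of the 4445 genes with at least 20 counts in all, whose median was 1.75. The counting interval of tumor-free replicate 2 (1132 to 1558 CPM) lay clear of that of tumor-free replicate 1 (704 to 1076 CPM) and of that of tumor-free replicate 3 (292 to 522 CPM). At 31 weeks the mean was 520 CPM with a tumor and 1104 CPM without (log2 ratio -1.09), whereas the 23-week mice had 368 and 395 CPM (log2 ratio -0.10). Without tumor-free replicate 2 the log2 fold change was -0.51, and without tumor-bearing replicate 4 it was -1.10.

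Genes that tissue digestion induces were read beside Sik1, which is itself an early response gene. Over 20 such genes the summed level was 439 to 893 CPM with a tumor and 611 to 856 CPM without, and 3 of the 20 were at 0 throughout. The library with most Sik1, tumor-free replicate 2, had the lowest sum of the tumor-free libraries (611 CPM). The tumor-bearing library with most Sik1, tumor-bearing replicate 3 (770 CPM of Sik1), had the highest sum of all (893 CPM). Btg2 alone made up 461 CPM of the sum in tumor-bearing replicate 3, and only 2 of the 20 genes, Fos and Btg2, could be tested. Fos, the AP-1 subunit, had 107, 144 and 322 CPM in tumor-free replicates 1 to 3 and 0, 63.1, 101 and 88.7 CPM in tumor-bearing replicates 1 to 4. Fos thus separated the groups, and it was highest in tumor-free replicate 3, the tumor-free library with least Sik1. Btg2, an antiproliferative early gene, overlapped between groups (log2 fold change 0.10, SE 0.50) and changed sign without tumor-bearing replicate 3, without tumor-free replicate 2 and in the fit with replicate blocks. The part of the digestion response in the level of Sik1 was not tested.

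Crtc3, the coactivator that SIK phosphorylation keeps in the cytoplasm (Entrez 70461, chromosome 7, 80586627 to 80688948), had the steadiest raw counts of the well counted genes. Its CPM varied more within each group than those of Pth1r. Tumor-free replicates 1 to 3 had 26, 24 and 31 counts, or 253, 204 and 250 CPM. Tumor-bearing replicates 1 to 4 had 24, 27, 40 and 33 counts, or 329, 284, 225 and 225 CPM. The ranges overlapped, with the tumor-bearing replicates 1 and 2 highest. Mean levels were 266 ± 50.6 CPM (SD, n = 4) with a tumor and 235 ± 27.5 CPM (SD, n = 3) without, a log2 fold change of 0.15 (SE 0.28, 95% interval -0.49 to 0.79) that was -0.0037 without tumor-free replicate 2. Its chi-square per degree of freedom was 0.54, below the value that counting gives on average, and 7.51% of genes with at least 20 counts lay lower.

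Crtc3 levels were ordered largely by library depth. Counts ranged only from 24 to 40 while totals differed from 77127 to 169774, and the log2 CPM of Crtc3 had a Pearson r of -0.84 with the log2 total over the 7 libraries. CPM share the total as their denominator, so this r is a description only. For Pth1r and Sik1 the r with the total was 0.23 in each case. The longest Crtc3 transcript held 1 A-rich window (at least 11 A in 12 bases, outside its last 100 bases), a feature found in 18.2% of 23035 genes, and 20 stretches of 25 bases found in transcripts of at least 50 genes. The longest Pth1r and Sik1 transcripts held neither kind. Whether internal priming or shared sequence adds to the Crtc3 counts was not tested.

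Crtc2, the other coactivator (chromosome 3, 90253858 to 90264125), had 9 counts, of which 8 were in tumor-bearing replicate 3 and 1 in tumor-free replicate 2. The other 5 libraries were at 0. No level can be compared between groups from counts that fell on 1 library. The longest transcripts of Crtc2 and Crtc3 shared no 25-base stretch.

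Creb1, the transcription factor at the end of the chain (Entrez 12912, chromosome 1, 64532794 to 64604548), had 3, 4 and 5 counts in tumor-free replicates 1 to 3 and 3, 4, 8 and 6 in tumor-bearing replicates 1 to 4. In CPM these were 29.2, 34.0 and 40.3 against 41.1, 42.0, 44.9 and 40.9, so the tumor-bearing libraries lay just above the tumor-free ones. The separation rested on the scaling, since the groups overlapped with upper-quartile scaling (lowest tumor-bearing 39.3, highest tumor-free 42.8 CPM) and on raw totals (38.9 and 42.1 CPM). The counting interval of tumor-free replicate 3 ran from 13.1 to 94.0 CPM, so such a difference was not detectable at this depth. Creb1 did not reach the count needed for the test across genes.

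**Figure D2:**
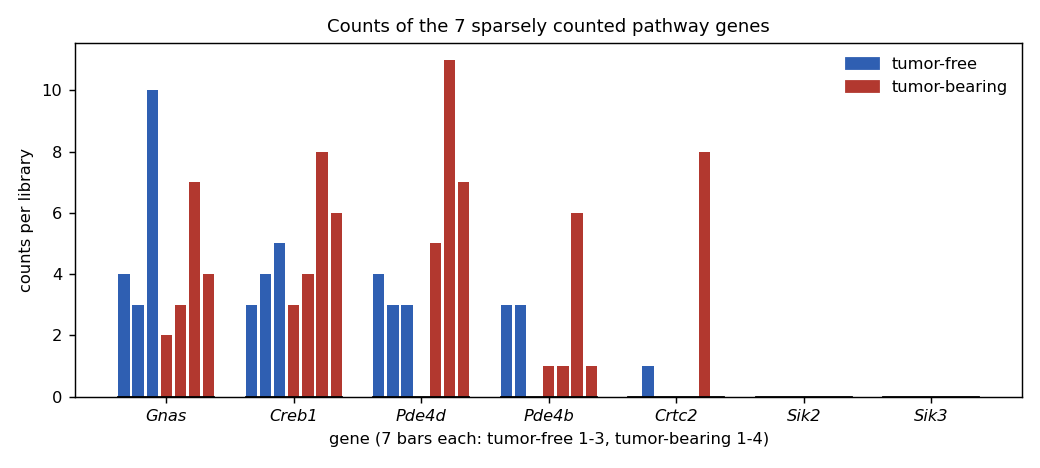
Counts per library of the 7 genes below the low count filter, with bars for tumor-free replicates 1 to 3 (blue) and tumor-bearing replicates 1 to 4 (red). The highest bar is 11 counts (Pde4d), Crtc2 rests on 1 library with 8 counts, and Sik2 and Sik3 have none.

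Across the whole table edgeR's quasi-likelihood test with Benjamini-Hochberg adjustment called 0% of the 2495 genes in either direction, Pth1r, Sik1 and Crtc3 included. These genes were chosen with the contrast known, so nothing about them is read from that count or from the shares that follow. Over all genes, the share at an unadjusted p under 0.05 was 0.922% higher and 1.44% lower with a tumor by edgeR, 0.521% and 1.44% by DESeq2, and 2.2% and 1.72% by limma voom. After adjustment DESeq2 and limma voom also called 0% of genes. Groups did not overlap with the tumor-bearing side lower, as for Pth1r, in 1.32% of the genes tested, and with that side higher in 2.2%. The log2 fold change lay below 0 in 2 of the 3 genes and in 45.8% of all genes tested. The median over all genes was 0.04 and the median SE 0.34, against an SE of 0.25 for Pth1r, 0.36 for Sik1 and 0.28 for Crtc3.

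**Figure D3:**
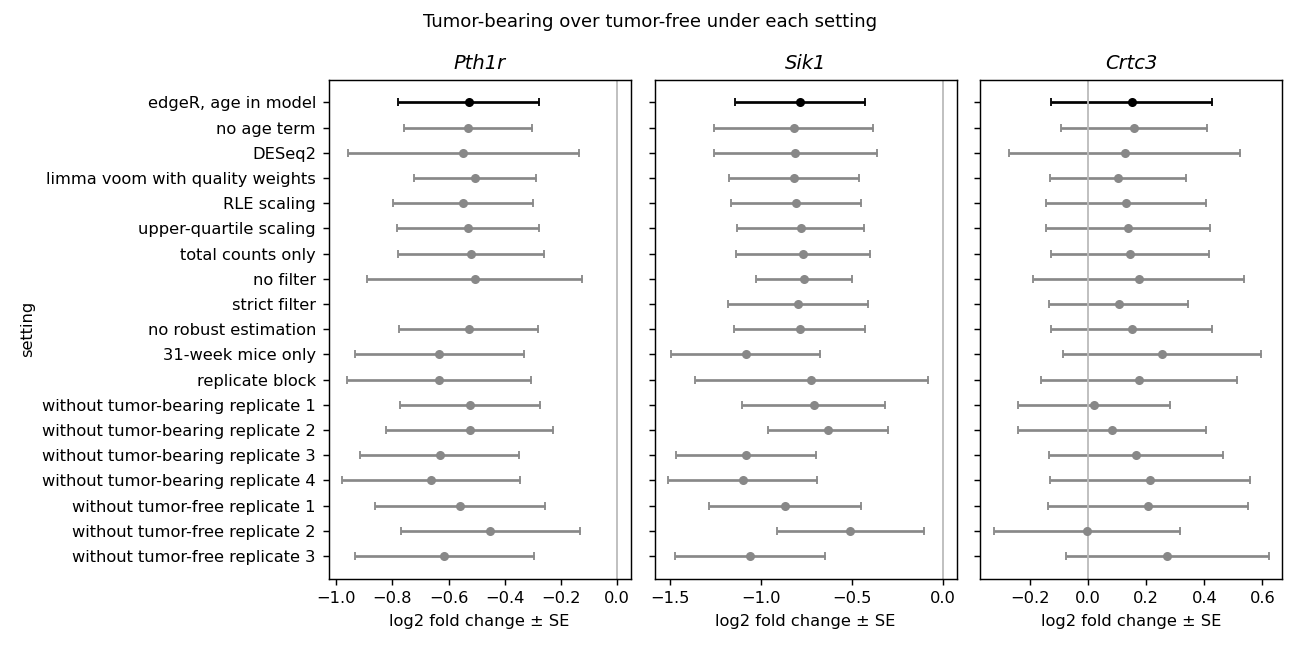
Log2 fold change (tumor-bearing over tumor-free, horizontal axis, ± SE) of Pth1r, Sik1 and Crtc3 under each setting (vertical axis), with the fit of the text in black and alternatives in grey; each panel has its own horizontal scale, and Pth1r has no value under the stricter filter. Pth1r stayed between -0.66 and -0.45 and Sik1 between -1.10 and -0.51, while Crtc3 lay between -0.0037 and 0.27.

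The 3 well counted genes did not share 1 pattern across mice. In log2 CPM over the 7 libraries Pth1r and Sik1 had a Pearson r of 0.68, Pth1r and Crtc3 -0.64, and Sik1 and Crtc3 -0.55. All 3 values share the same libraries and depths and describe these mice only. Tumor-free replicate 2 was highest for both Pth1r and Sik1 and lowest for Crtc3, while tumor-free replicate 3 was high for Pth1r and low for Sik1. Among the 2494 other genes tested, those most like Pth1r over the 7 libraries were Gbp5, an interferon-induced GTPase (r = 0.94, 9 to 22 counts), Gm20554 (r = 0.91) and Zfp976 (r = 0.91). Those most like Sik1 were Gas7 (r = 0.99, 55 to 200 counts), Kmt2d, a histone methyltransferase (r = 0.98), and Zfp444 (r = 0.97). The highest of 2494 correlations over 7 libraries is large in any such table.

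The rest of the pathway was read from 11 lists of 155 further symbols, of which 154 were in the files, 34 were at 0 throughout and 22 could be tested. None of the 22 was called higher or lower (edgeR, adjusted over all genes). Of them 8 lay above 0 and 14 below, while 45.8% of all genes tested lay below 0. The median log2 fold change was -0.08 against 0.04 over all genes. The lists were chosen with earlier results of these data known, so these counts are a description. At an unadjusted p under 0.05 (edgeR) there was 1 of the 22, against 59 of the 2495 genes tested. It was Gna11, named after its value was seen. This G protein alpha subunit of the phospholipase C branch, through which the PTH receptor also signals, was dominated by tumor-free replicate 2. That library held 188 of its 329 counts (log2 fold change -1.66, SE 0.69).

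Ligands and receptor regulators were too sparse to test. Of 6 ligand genes, 3 were at 0 and Adm, encoding adrenomedullin, had 3 to 9 counts per library. Of 12 receptor regulators in the files, 6 were at 0 and Rgs2, a regulator of G protein signalling that PTH induces, had 0 to 6. Among 14 other receptors that couple to the same G protein, 3 could be tested. Calcrl, the receptor subunit for adrenomedullin, had 345 ± 63.9 CPM (SD, n = 4) with a tumor and 284 ± 54.8 CPM (SD, n = 3) without. Mc1r, the melanocortin receptor, had 1024 ± 289.5 against 841 ± 36.6 CPM. Both receptors overlapped between groups.

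G protein subunits and cyclases overlapped between the groups too. Gnb1, a beta subunit, had 1323, 628 and 306 CPM in tumor-free replicates 1 to 3 and 462 to 700 CPM with a tumor. The log2 fold change was -0.33 (SE 0.45), or 0.28 on leaving out tumor-free replicate 1. Gnal, an alpha subunit close to that of Gnas, had 428 ± 25.7 against 487 ± 80.1 CPM. Of 10 adenylyl cyclase genes only Adcy6 could be tested, with 170 ± 48.4 CPM (SD, n = 4) with a tumor and 176 ± 71.8 CPM (SD, n = 3) without.

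Of 14 other phosphodiesterases 2 could be tested. Pde1a, a calcium-stimulated phosphodiesterase, had 123, 147, 140 and 123 CPM in tumor-bearing replicates 1 to 4 and 117, 84.9 and 72.5 CPM in tumor-free replicates 1 to 3. Its groups did not overlap, with the tumor-bearing side higher (log2 fold change 0.55, SE 0.28), as in 2.2% of all genes tested. The margin was narrow, from 9 to 25 counts per library, and rested on the scaling. On raw totals tumor-bearing replicate 1 fell just below tumor-free replicate 1, so the groups overlapped. Pde4c, of the same class as Pde4b and Pde4d, overlapped, with 196 ± 39.6 against 218 ± 35.1 CPM. Among the 19 genes of PKA, its anchors and the cAMP-gated exchange factors 4 could be tested, and Rapgef4, an exchange factor, stood at 1041 ± 221 against 1227 ± 461 CPM. Pkib, a PKA inhibitor, had 229 ± 78.9 against 180 ± 44.8 CPM.

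Downstream of the kinases, Hdac5, a class IIa histone deacetylase, had 125 ± 21.9 CPM (SD, n = 4) with a tumor and 96.7 ± 33.3 CPM (SD, n = 3) without. Mef2c, the factor that these deacetylases repress, had 60.5 ± 37.0 against 90.1 ± 19.0 CPM. Crem, whose short products are cAMP-induced repressors, had 98.5 ± 34.7 against 140 ± 61.7 CPM (log2 fold change -0.45, SE 0.37). Atf2 had 131 ± 38.2 against 112 ± 38.6 CPM. All 4 genes overlapped between groups.

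Of 20 genes known to respond to PTH, 3 could be tested (Wnt4, Igf1 and Fos) and all 3 lay below 0, with a median of -0.46. Wnt4, a Wnt ligand, had 1135 ± 180 CPM with a tumor and 1267 ± 147 CPM without, and its groups overlapped. Igf1, the growth factor, had 574, 323 and 258 CPM in tumor-free replicates 1 to 3 and 236 to 348 CPM with a tumor, and its log2 fold change of -0.46 was -0.02 without tumor-free replicate 1. The summed level of all 20 genes was 1534 to 1879 CPM with a tumor and 1975 to 2087 CPM without, ranges that did not overlap. The sum was mostly Wnt4, whose own groups overlapped, and 5 of the 20 genes were at 0 throughout. Fos, which is also on the list of digestion genes, stood at 63.2 ± 45.0 against 191 ± 115 CPM, and without it the sums overlapped, at 1433 to 1879 against 1765 to 1868 CPM, a comparison chosen after seeing the data. Sost, the osteocyte gene that PTH represses, had at most 1 count in a library.

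**Figure D4:**
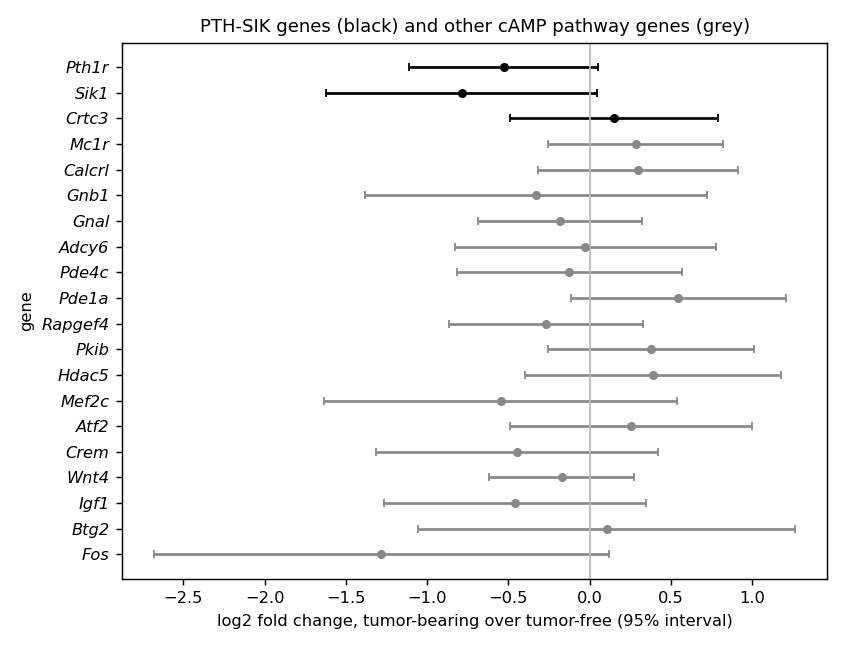
Log2 fold change (tumor-bearing over tumor-free, horizontal axis) with 95% interval of the 3 tested genes of the chain (black) and the tested genes of the other pathway lists that have the most counts (grey). Every interval reaches across 0; the farthest values are those of Fos (-1.28) and Sik1 (-0.79) below and Pde1a (0.55) above.

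Summed cell type markers were read beside Pth1r. The summed level of 11 osteoblast markers was 988 to 1605 CPM with a tumor and 1306 to 2374 CPM without, overlapping ranges. Their mean was 1185 ± 290 CPM (SD, n = 4) with a tumor and 1705 ± 583 CPM (SD, n = 3) without. The mean of Pth1r was also lower with a tumor. The highest Pth1r library, tumor-free replicate 2, had an osteoblast marker sum of 1435 CPM. The 5 osteocyte markers summed to 68.6 to 177 CPM in tumor-bearing and 178 to 201 CPM in tumor-free libraries, apart by a narrow margin and mostly Phex, while Sost and Mepe had at most 1 count in a library. The 5 marrow stroma markers summed to 663 to 988 CPM with and 613 to 725 CPM without, mostly Lepr, with Adipoq at 0. The 5 chondrocyte markers, with Col10a1 at 0, summed to 617 to 2870 CPM with and 854 to 1060 CPM without, the top value in tumor-bearing replicate 2. The part of these cells in the level of Pth1r was not tested.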

How the data were processed

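Gene expression was measured in 7 libraries, 1 per mouse, made per the labels' protocols from Trizol RNA by a customised CEL-Seq method for 3′ ends with unique molecular identifiers. Each deposited file lists raw counts by Entrez ID, as whole numbers without normalization. TopHat2 2.0.10, SAMtools and mm10 are named in the submitters' processing notes, whereas the counter, its strand setting and whether identifiers were collapsed is not given in the sources used. Each library is a separate mouse, and litters or preparation days are not labelled.

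The members and gene lists were chosen with earlier results of these data known. Symbols came from a RefSeq table (GRCm38.p6, the assembly of mm10), which matched 23666 of 23725 IDs; the chromosome and coordinates are from it. Genes were filtered with filterByExpr (minimum count 10, minimum total 15) to 2495, scaled by TMM (factors 0.945 to 1.05) and tested with glmQLFit (robust) and glmQLFTest of edgeR 4.0.16 in R 4.3.3, with age as a factor, with Benjamini-Hochberg adjustment and a threshold of 0.05. A negative log2 fold change means lower with a tumor. CPM are counts over TMM-scaled totals, and log2 CPM for correlations had 0.5 counts added. Alternatives were no age term, 31-week mice, a replicate block, DESeq2 1.42.0, limma voom (limma 3.58.1), other scalings and filters, no robust estimation, and each library left out. Named beside the 10 genes were, of each list, the up to 2 genes with most counts, whatever their difference, and the 3 genes most like Pth1r and Sik1. Transcript features were read in each gene's longest transcript of GENCODE vM21, and 25-base stretches with at least 23 bases of 2 kinds were left out. No library other than these 7 was used.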

Additional observations from a re-analysis of the deposited data

Results flagged for a closer look

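In 3 named genes, none of them among the 10, the difference between tumor-bearing and tumor-free mice ran one way in every 31-week mouse and the other way in the single 23-week pair; this contrast between ages was not tested. Calcrl had 439, 315 and 298 CPM in the 31-week tumor-bearing mice and 243 and 263 CPM in the tumor-free ones, but the 23-week tumor-bearing mouse stood at -19.1 CPM relative to the tumor-free one (327 and 347 CPM). Crem had 54.9, 116 and 135 CPM against 136 and 204 CPM at 31 weeks, apart by a narrow margin, and 8.1 CPM more with a tumor at 23 weeks. Igf1 had 274, 252 and 236 CPM against 574 and 323 CPM at 31 weeks, and 90 CPM more with a tumor at 23 weeks (348 and 258 CPM). With 1 mouse per group at 23 weeks, no spread is known there. The 3 genes were picked for this pattern from the 10 genes and all other named genes, so they are a description only.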

How the results depend on the processing

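Under the alternatives run, Pth1r kept its sign in 17 of 17 and Sik1 in 18 of 18, and Crtc3 in 17 of 18, the exception being without tumor-free replicate 2. These fits reuse the same 7 libraries for genes chosen with the contrast known, so kept signs are a description only. Leaving out either 23-week mouse nearly repeats the fit of the 31-week mice. Sik1 was -1.10 without tumor-bearing replicate 4, -1.06 without tumor-free replicate 3 and -1.09 with 31-week mice only. Of 345 values for Pth1r, Sik1, Crtc3 and the other named genes, 342 moved by less than 1 SD between replicates. The other 3 were Pth1r without tumor-bearing replicate 4 (-0.66) and Igf1 without that library (-0.89) or without tumor-free replicate 1 (-0.02). The count of genes called over the whole table stayed at 0 in both directions in every fit with a filter, whichever library was left out (0 to 0). With no filter, 6 genes were called higher and 32 lower among 13344, and 12 of these 38 were among the 2495; none was one of the 10 genes, and the cause was not tested. Signs also turned for Gnb1 (0.28 without tumor-free replicate 1), Adcy6 (0.44 without tumor-free replicate 2, and 0.01 without tumor-bearing replicate 2 and with limma voom), Pde4c (0.0074 without tumor-free replicate 1), Rapgef4 (0.03 without tumor-free replicate 2) and Btg2 (-0.53 without tumor-bearing replicate 3). With the replicate number as a block, which drops tumor-bearing replicate 4 and the age term, 0 genes were called higher and 0 lower. The values were then -0.63 for Pth1r, -0.72 for Sik1 and 0.18 for Crtc3, while Atf2 turned to -0.04. In that fit replicate 3 sets a 31-week tumor-bearing mouse against a 23-week tumor-free one, so age enters the contrast. Same-numbered mice did not deviate together (correlations -0.20, -0.12 and -0.14, against -0.26 to 0.24 for other pairs). Such values cannot show whether mice shared a litter or preparation day, which is not labelled. Leaving Fos out of the PTH-responsive genes, added after seeing the data, moved the difference of their sums from -332 to -204 CPM. Pth1r did not reach the stricter filter of 30 counts in 3 libraries. Depth limits the 5 counted genes below the filter, with 0 to 11 counts per library and, without the filter, SEs of 0.53 to 1.51 on the log2 scale.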
